A study of Homo sapiens with 4 samples.

Results

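The genes of the NF-kB subunits and of their feedback inhibitors were followed in MV4-11 cells with and without CEBPG knockdown. The 10 genes were chosen by name, with earlier results of these data known. All RefSeq rows of the FPKM table carrying any of their symbols were taken. This gave 19 rows for 10 of the 16490 genes with values. They are the 5 subunit genes (NFKB1, NFKB2, REL, RELA and RELB), 3 genes of IkB proteins (NFKBIA, NFKBIB and NFKBIE), TNFAIP3 and BIRC3. MV4-11 is a human acute myeloid leukemia (AML) cell line that carries an MLL fusion and an internal duplication in FLT3. The design has 2 libraries with the control hairpin sh-NC and 2 with sh-CEBPG#3, a hairpin against the transcription factor CEBPG. Both groups were infected with a pLKO.1-puro lentivirus and selected with puromycin. A single CEBPG hairpin was sequenced, so its effects other than on CEBPG cannot be told apart from those of CEBPG loss, and whether the 2 libraries of each group derive from different infections is not given in the sources used here.

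NF-kB is a family of dimeric transcription factors. In resting cells most dimers are held in the cytoplasm by IkB proteins, and signals from cytokine or Toll-like receptors activate the IKK kinase complex, which marks IkB for destruction and frees the dimers to enter the nucleus. RELA with p50, made from NFKB1, is the usual dimer of this canonical route, while RELB with p52, made from NFKB2, is that of the slower noncanonical route. Several inhibitors are themselves NF-kB targets, so that the response limits itself. In monocytes and macrophages this system drives much of the inflammatory gene program.

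The values are FPKM, fragment counts scaled to transcript length and to the mapped fragments of the library, summed over the rows of each gene. The library totals of all rows lay between 364353 and 389766 FPKM, and the read depth is unknown. Log2(FPKM + 1) values were compared with limma over the 12142 genes whose mean reached 0.5 FPKM. Adding 1 before the logarithm makes changes of low genes appear smaller. CEBPG itself had 30.4 and 33.6 FPKM in control cells against 19.2 and 17.1 FPKM upon knockdown, so that 56.8% of the control level remained. CEBPG fell by 0.78 on the log2 scale (limma, standard error 0.09, adjusted p = 8.88e-05). An exact two-sided permutation test of 2 against 2 libraries cannot go below p = 0.333, so each p-value of a gene rests on limma's shared estimate of the variance. The cells were checked against 10 markers of myeloid leukemia, all with values. SPI1, FLT3 and LYZ had means of 120, 71.3 and 589 FPKM in sh-NC cells. None of 5 erythroid and 4 T cell markers has a value in the table used here. Of the 10 myeloid markers 6 (60%) were higher upon knockdown at an adjusted p under 0.05 in limma, against 18.5% of all genes tested. These were CD33, SPI1, CSF1R, LYZ, MPO and CD4. MEIS1 and HOXA9 were lower, by 0.87 and 0.36 on the log2 scale. These 2 are 20% of the list, near the 23.8% of all genes, and are no result about the markers. The summed FPKM of the 10 markers lay between 962 and 1050 in control cells and between 3472 and 3651 upon knockdown, mostly through LYZ at 3054 FPKM. The summed FPKM of B cell markers was 0.995 to 1.03 and 1.03 to 1.52, with no value for MS4A1, and that of epithelial and fibroblast markers 2.34 to 2.36 and 6.27 to 6.28, almost all of it KRT8, with no value for EPCAM and COL1A2. The part of these shifts in the results that follow was not tested.

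Upon CEBPG knockdown, 5 of the 10 genes rose by more than 1 on the log2 scale. These were NFKB2 and RELB, the subunits of the noncanonical route, and NFKBIA, NFKBIE and TNFAIP3, which encode inhibitors. RELA rose slightly, NFKB1, REL and NFKBIB did not pass the test, and BIRC3 was too low to be tested. Of the 9 genes tested, 6 were higher at an adjusted p under 0.05, against 18.5% of all genes tested, and none was lower, against 23.8%. By limma's unadjusted p under 0.05, 7 were higher, against 22% of all genes, and 0 lower, against 28.5%. With a log2 fold change above 1 in addition, 5 of the 9 were called, against 2.33% of all genes. Both sh-CEBPG#3 libraries lay above both sh-NC libraries for 7 of the 9 genes tested, against 31.5% of the genes tested. The median log2 fold change of the 9 genes was 1.19, and that of all genes was -0.04. Since the genes were chosen with earlier results of these data known, these counts describe them and do not test them as a group. In bulk RNA, a higher level per cell and a larger share of cells expressing a gene cannot be told apart.

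**Figure D1:**
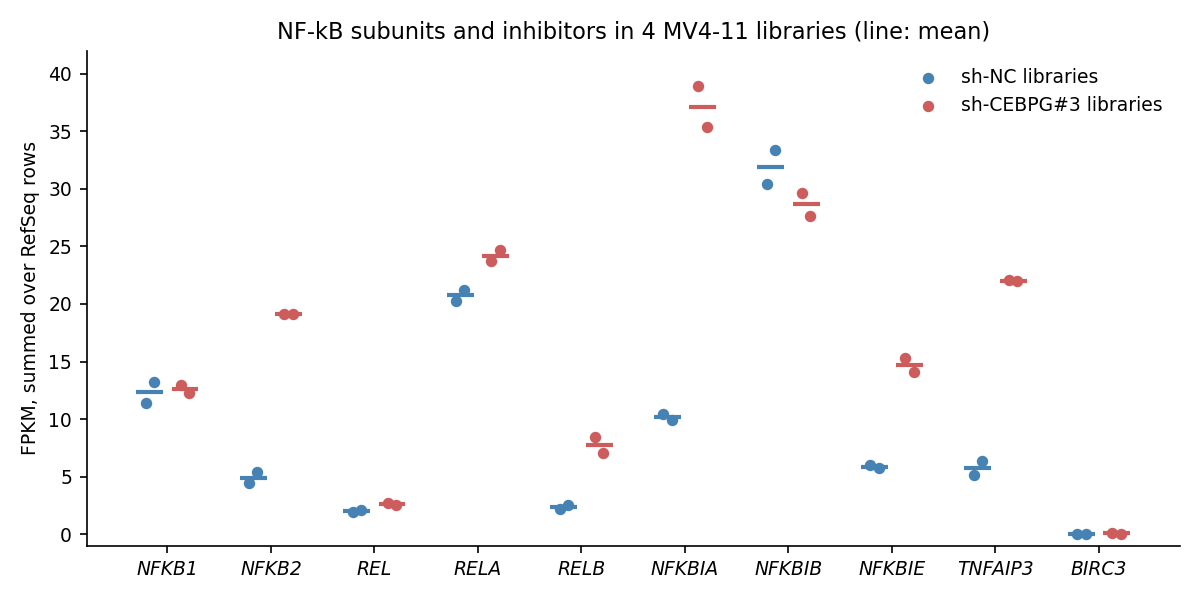
FPKM of the 10 genes (x axis) in each library (y axis, summed over RefSeq rows), with sh-NC libraries in blue, sh-CEBPG#3 libraries in red and a line at each mean of 2 libraries. NFKB2, RELB, NFKBIA, NFKBIE and TNFAIP3 stand well apart between the groups, NFKB1 overlaps, and BIRC3 lies at or near 0.

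**Figure D2:**
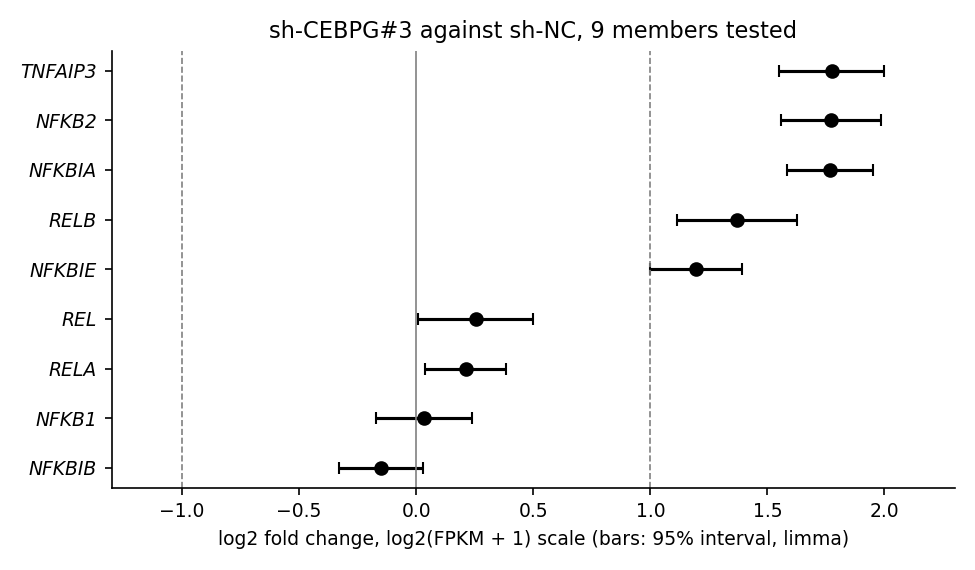
Log2 fold change of the 9 genes tested, sh-CEBPG#3 against sh-NC on the log2(FPKM + 1) scale (x axis), with 95% intervals from limma and dashed lines at -1 and 1. The 5 upper genes have estimates from 1.19 to 1.77, and the 4 lower genes from -0.15 to 0.25.

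Because these genes regulate each other, the promoters were searched for NF-kB motifs. The RefSeq promoter table (GRCh38.p14, 250 bases before to 50 after each start) holds 13 promoters of 8 of the 10 genes. The NF-kB consensus, searched on both strands and chosen after a looser pattern (GGG and CC with any 5 bases between) had been found in 58.7% of all 35116 promoters, is held by 5.91% of them. A match to it was found in 8 of the 13 promoters, belonging to 7 of the 8 genes, and in none of RELA. The promoters of RELB and NFKBIE were not analysed here. The other 3 genes that rose by more than 1 (NFKB2, NFKBIA and TNFAIP3) and genes that did not pass the test (NFKB1, REL and NFKBIB) both held one, as did BIRC3. A match in letters is not a measured binding site. The following stretches are shown because they set the sites of genes that rose beside those of genes that did not pass, each 5′ to 3′ on the strand of its gene with the match in capitals.
NFKBIA (chr14:35404812-35404839, minus strand): gactggcttGGAAATTCCCcgagcctga
TNFAIP3, distal site (chr6:137867183-137867210, plus strand): cgtgactttGGAAAGTCCCgtggaaatc
TNFAIP3, proximal site (chr6:137867195-137867222, plus strand): aagtcccgtGGAAATCCCCgggcctaca
NFKB2 (chr10:102394462-102394489, plus strand): aaacgtcatGGGAATTCCCccctccggg
NFKB2, another start (chr10:102395675-102395702, plus strand): ggtattttcGGGACTTTCCtaagctgct
NFKB1 (chr4:102501301-102501328, plus strand): gacgtcagtGGGAATTTCCagccaggaa
REL (chr2:60881518-60881545, plus strand): gtcagccgcGGGAAATTCCcctcccgcc
NFKBIB (chr19:38899932-38899959, plus strand): ggcgtggtgGGGAATTTCCcgcagggcg

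The match in the NFKBIA promoter begins 81 bases before the start and reads GGGAATTTCC on the other strand. The same 10 letters stand in NFKB1, 49 bases before a start, in NFKBIB, 28 bases before a start, and on the other strand in REL, 46 bases before a start. NFKBIA rose, while NFKB1, NFKBIB and REL did not pass the test. The C/EBP pattern TTGCNNAA and the C/EBP-ATF pattern TGATGNAA, each searched on both strands, were found in none of the 13 promoters, against 10.5% and 3.62% of all promoters. This says only that these letters are not in these windows.

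Among the inhibitors, NFKBIA rose most in FPKM. It encodes IkBα, the inhibitor that is destroyed and remade fastest in the canonical route, and lies on the minus strand of chromosome 14 from 35401079 to 35404749 (GRCh38). It had 10.4 and 9.94 FPKM in control cells, and 38.9 and 35.3 FPKM upon knockdown. Both knockdown libraries thus lay far above both controls, and the mean went from 10.2 ± 0.345 to 37.1 ± 2.51 FPKM (SD, n = 2 each), a ratio of 3.65. On the log2 scale it rose by 1.77 (standard error 0.08, limma, Benjamini-Hochberg adjusted p = 2.47e-07 over all genes), which ranked 79 among the increases of 12142 genes.

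TNFAIP3 encodes A20, a ubiquitin-editing enzyme that shuts down signaling upstream of IKK, and lies on chromosome 6 from 137867214 to 137883314. It had 5.15 and 6.38 FPKM in sh-NC cells and 22.1 and 21.99 FPKM upon knockdown, with no overlap and hardly any spread in the knockdown group. The mean ratio was 3.82 and the log2 fold change 1.77 (standard error 0.10, adjusted p = 9.96e-07). NFKBIE, which encodes IkBε and lies on chromosome 6 from 44258166 to 44265788, had 5.99 and 5.74 FPKM in the control libraries. In the knockdown libraries it had 15.3 and 14.1 FPKM, again without overlap. Its log2 fold change of 1.19 was the smallest of the 5 (standard error 0.09, adjusted p = 5.58e-06), with a 95% interval from 1.00 to 1.39.

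NFKBIB, the gene of IkBβ, was the most abundant of the 10 genes in sh-NC cells and did not take part in the rise. It had 30.5 and 33.4 FPKM in sh-NC cells and 29.7 and 27.7 FPKM in sh-CEBPG#3 cells. The knockdown libraries were slightly lower without overlap, and the log2 fold change was -0.15 (95% interval -0.33 to 0.03, adjusted p = 0.162). The interval does not reach the increases of NFKBIA or NFKBIE, although the differences between genes were not tested. With quantile normalization (log2 fold change -0.14, adjusted p = 0.0335) or equal totals (-0.18, adjusted p = 0.02) this small decrease passed 0.05 in limma. BIRC3, the gene of the ubiquitin ligase cIAP2 and a well known NF-kB target, was listed at 0 in both sh-NC libraries and had 0.0952 and 0.0375 FPKM upon knockdown. These are values near 0, and no fold change is given.

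Among the subunits, NFKB2 rose most. It encodes p100, which is cut to p52 and which, uncut, itself acts as an IkB-like inhibitor, and lies on chromosome 10 from 102394110 to 102402524. NFKB2 had 4.47 and 5.36 FPKM in sh-NC cells and 19.2 and 19.1 FPKM in sh-CEBPG#3 cells. Both knockdown libraries lay above 3 times either control library. NFKB2 thus rose by 1.77 on the log2 scale, with a ratio of means of 3.90 (standard error 0.10, adjusted p = 7.24e-07). RELB, the partner of p52, lies on chromosome 19 from 45001461 to 45038192 and had 2.19 and 2.57 FPKM in the controls. Upon knockdown it had 8.48 and 7.01 FPKM, so the groups did not overlap, and RELB rose by 1.37 on the log2 scale (standard error 0.11, adjusted p = 1.27e-05).

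The subunits of the canonical route were much steadier. NFKB1, the gene of p105 and p50, had 11.4 and 13.2 FPKM in sh-NC cells and 12.9 and 12.2 FPKM in sh-CEBPG#3 cells. The groups overlapped, with a log2 fold change of 0.03 (95% interval -0.17 to 0.24, adjusted p = 0.806). RELA, the main activating subunit, had 20.3 and 21.3 FPKM in the controls and 23.7 and 24.7 FPKM upon knockdown. This is an increase without overlap, but a small one, of 0.21 on the log2 scale (95% interval 0.04 to 0.38, adjusted p = 0.0492). The call of RELA did not hold with the lower pseudocounts, without the filter or per transcript. It was also lost without sh-NC replicate 1, without sh-CEBPG#3 replicate 1 or without sh-CEBPG#3 replicate 2, at adjusted p = 0.144, 0.119 and 0.236 in limma, and was kept in the fit that left out sh-NC replicate 2. With the replicate number as a block the adjusted p = 0.153 in limma.

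REL, the gene of c-Rel, was the lowest of the subunits, with 1.93 and 2.13 FPKM in sh-NC cells and 2.70 and 2.53 FPKM in sh-CEBPG#3 cells. Its log2 fold change of 0.25 did not pass (95% interval 0.01 to 0.50, adjusted p = 0.0907), except with quantile normalization (0.28, adjusted p = 0.0426 in limma). In GENCODE, 33.3% of the exon bases of REL are shared with a lncRNA on the same strand, and reads of the pair cannot be told apart there. Overlaps with other genes covered less than 2% of the exon bases of RELA, NFKBIB, TNFAIP3 and BIRC3, and no overlap was annotated for the other members.

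The order of levels changed accordingly. FPKM values are per length, so levels can be set side by side between genes. In sh-NC cells the order was NFKBIB, RELA, NFKB1, NFKBIA, then NFKBIE, TNFAIP3 and NFKB2, then RELB, REL and BIRC3. NFKBIE overlapped TNFAIP3 and TNFAIP3 overlapped NFKB2, and each other pair of neighbours was separated in both libraries. In sh-CEBPG#3 cells NFKBIA stood first and no neighbours overlapped, with TNFAIP3 and NFKB2 now above NFKBIE and NFKB1. The ratio of NFKBIA to RELA in FPKM was 0.514 and 0.468 in control cells against 1.64 and 1.43 upon knockdown. That of NFKB2 to NFKB1 was 0.391 and 0.407 in controls and 1.48 and 1.56 upon knockdown. In both ratios the second gene was the more abundant in control cells and the first in knockdown cells, with an exact permutation p = 0.333, the smallest that this design allows.

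Within the subunit genes together, the share of NFKB2 was 11.6 ± 0.682% of the summed FPKM in sh-NC cells and 28.9 ± 0.395% in sh-CEBPG#3 cells (SD, n = 2 each), and that of RELB was 5.60 ± 0.237% and 11.7 ± 1.41%. RELA fell from a share of 49.0 ± 1.81% to 36.5 ± 1.60% while its own FPKM did not fall, since shares of a growing total are not independent of each other. The subunits summed to 40.3 and 44.5 FPKM in controls and 67.0 and 65.6 FPKM upon knockdown. The 3 IkB genes summed to 46.9 and 49.1 FPKM in controls and 83.9 and 77.1 FPKM upon knockdown, in which NFKBIA went from 21.2% to 46.1% and NFKBIB from 66.5% to 35.6% of the sum. The ratio of IkB to subunit FPKM was 1.16 and 1.10 in controls against 1.25 and 1.17 upon knockdown. The groups stood only just apart in this ratio, and protein levels were not measured in these libraries.

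**Figure D3:**
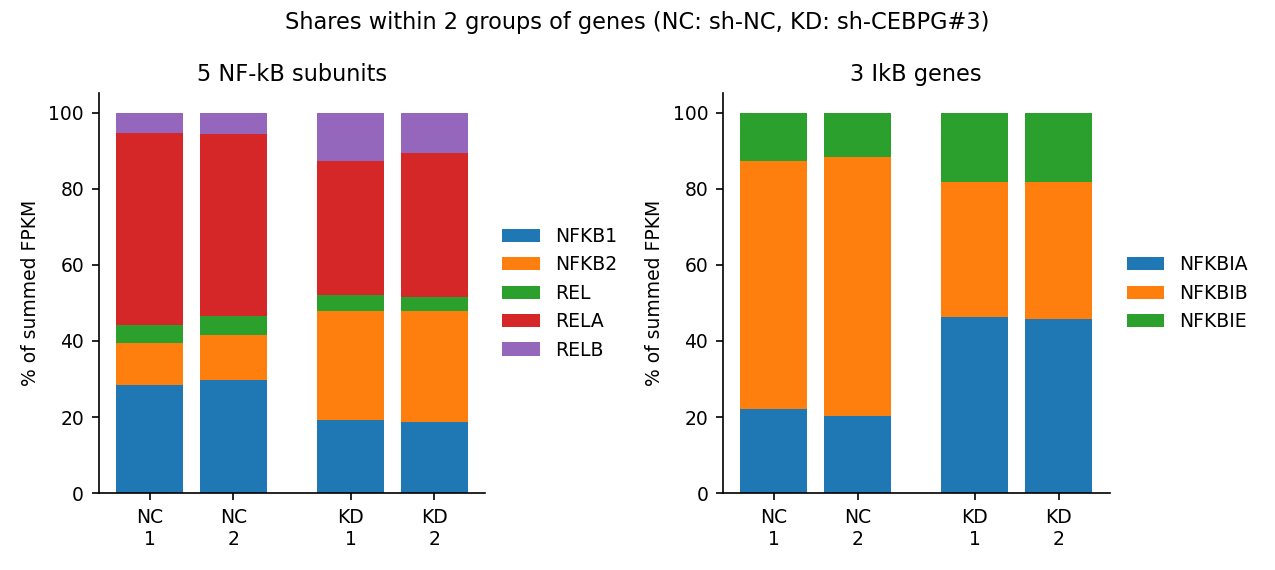
Share of each gene (y axis, percent of summed FPKM) among the 5 subunit genes (left) and the 3 IkB genes (right) in each library (NC, sh-NC; KD, sh-CEBPG#3). NFKB2 and RELB take a larger share of the subunits in KD libraries, and NFKBIA takes the place of NFKBIB as the largest share of the IkB genes.

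The RefSeq rows of a gene did not all move alike. Of the 19 rows, 16 passed the filter and 6 were higher at an adjusted p under 0.05 when all 18624 rows were tested, against 4.16% of all rows tested, and 0 were lower, against 4.08%. NFKB1 is listed by NM_003998 and NM_001165412. NM_003998 had 4.85 and 6.71 FPKM in sh-NC cells and 9.01 and 9.26 FPKM in sh-CEBPG#3 cells. NM_001165412 had 6.59 and 6.47 FPKM in sh-NC cells and 3.91 and 2.98 FPKM in sh-CEBPG#3 cells. The rows thus moved in opposite directions without overlap and left the sum of NFKB1 nearly level, but neither passed in limma (log2 fold change 0.59 with adjusted p = 0.111, and -0.77 with adjusted p = 0.0591). The part of this that lies in how FPKM was divided between the rows was not tested.

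All 4 rows of NFKB2 had higher means upon knockdown. The main row, NM_001288724, went from 3.0 ± 0.498 to 10.5 ± 0.105 FPKM (SD, n = 2 each) and was the only NFKB2 row to pass (log2 fold change 1.53, adjusted p = 0.0167 in limma). Of the TNFAIP3 rows, NM_006290 rose by 1.57 and NM_001270508 by 2.18 on the log2 scale, with adjusted p = 0.0234 and adjusted p = 0.0315. NM_001270507 had 6.76 FPKM in the first sh-CEBPG#3 library and 1.87 FPKM in the second, while NM_001270508 had 6.45 and 10.6 FPKM. The TNFAIP3 sums of these libraries were nearly equal, and the cause of the spread within the rows was not tested. NFKBIB was carried mainly by NM_002503, at 71.98% of its control level, and the noncoding NR_040515 made up 27.6%. Neither of these rows passed.

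**Figure D4:**
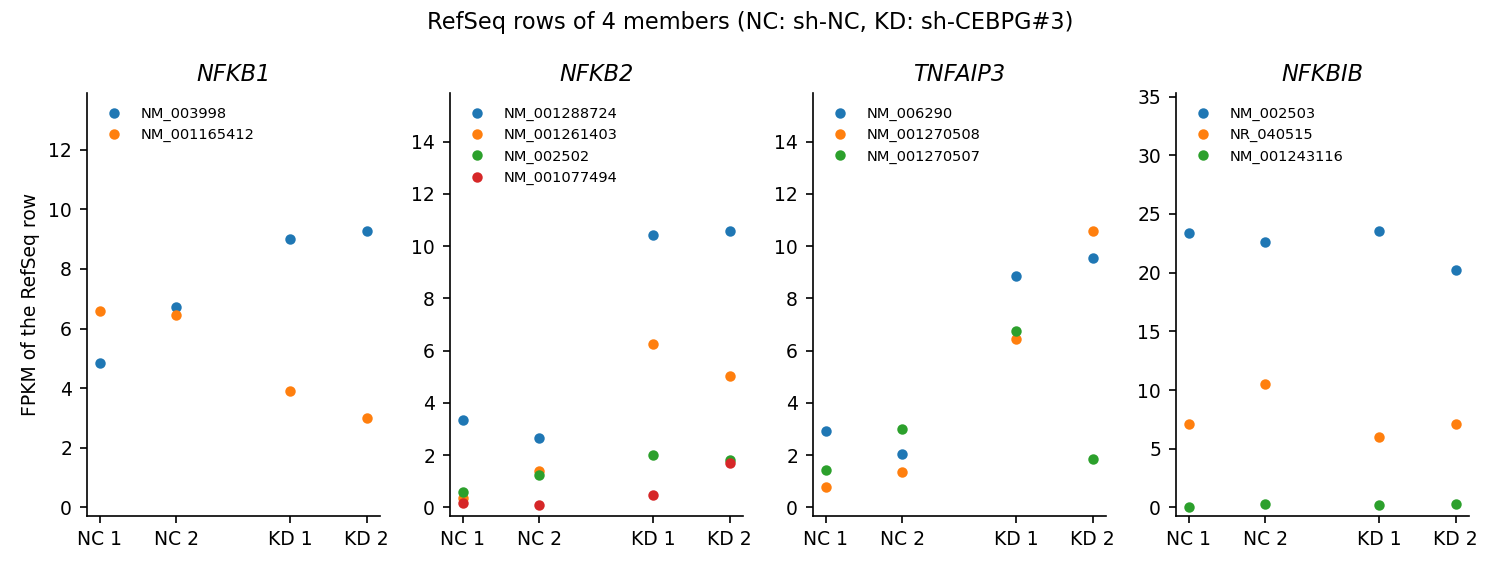
FPKM of each RefSeq row (y axis) of NFKB1, NFKB2, TNFAIP3 and NFKBIB in the 4 libraries (NC, sh-NC; KD, sh-CEBPG#3), 1 point per row and library. NM_003998 of NFKB1 lies higher and NM_001165412 lower in the KD libraries, while the rows of NFKB2 lie higher in the KD libraries and NM_001270507 of TNFAIP3 differs between the KD libraries.

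Other genes of the pathway were read from lists by role, in which TRAF5 among the adaptors and TNIP3 among the negative regulators had no value. These lists too were chosen with earlier results of these data known, so the counts describe them and test no group. The counts of called genes are read against the shares of all genes tested, 18.5% higher, 23.8% lower and 2.33% higher by more than 1. These shares include genes that reached the filter through only 1 group, unlike the counts below that leave such genes out. Of 15 listed ligands and receptors, 11 had values and 9 were tested. TNFRSF13B, TNFRSF17, CD40LG and TNFSF11 had no value, and TNFRSF11A and LTA did not reach the filter. Among the 9 tested, 7 were higher and 0 lower (8 and 0 by limma's unadjusted p under 0.05), with a median log2 fold change of 0.49. CD40 is among the 7 and reached the filter only through the knockdown libraries. Of the 8 other genes, 6 (75%) were higher and 0 lower (7 and 0 by limma's unadjusted p), with a median of 0.43. TNFSF13B, the ligand BAFF that signals through the noncanonical route, had 11.2 and 11.3 FPKM in sh-NC cells and 34.5 and 32.3 FPKM in sh-CEBPG#3 cells (log2 fold change 1.49, adjusted p = 6.28e-07). CD40, a receptor that feeds both routes, had 0.151 and 0 FPKM in controls and 2.18 and 2.18 FPKM upon knockdown, and no test is given for it. TNF itself, given here although it fell outside the rule for named genes, was 1.26 and 1.39 FPKM in controls and 2.33 and 2.18 FPKM upon knockdown.

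Of 24 tested kinases and adaptors that carry the signal, 3 (12.5%) were higher, against 18.5% of all genes, and 1 (4.17%) lower, against 23.8%, with a median log2 fold change of 0.02. None changed by more than 1. The most abundant, IRAK1 (55.8 and 60.6 FPKM in the group means) and UBE2N (52.9 and 59.2 FPKM), did not pass. The 4 genes that passed are named after their values were seen. RNF31, a subunit of the linear ubiquitin ligase LUBAC, rose by 0.63 on the log2 scale, BIRC2, the paralog of BIRC3, by 0.34 and the adaptor gene CARD9 by 0.28, while TAB1, an activator of the kinase TAK1, fell by 0.64. The IKK genes CHUK (log2 fold change 0.07), IKBKB (-0.03) and IKBKG (0.21) did not pass, nor did the noncanonical kinase gene MAP3K14 (-0.19), and these too were singled out after their values were seen. These counts moved with single libraries, to 1 higher without sh-CEBPG#3 replicate 2, to 3 lower without sh-NC replicate 1 and to 2 lower without sh-CEBPG#3 replicate 1.

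Nuclear IkB proteins and other negative regulators split in direction, with 5 higher (45.5%, against 18.5% of all genes) and 3 lower of 11 tested and a median of 0.03. The lower share of 27.3% lies near the 23.8% of all genes and is no result about these genes. The nuclear IkB genes BCL3 and NFKBIZ, which modify NF-kB activity on DNA, were those past a log2 fold change of 1. BCL3 had 2.15 and 2.81 FPKM in sh-NC cells and 6.74 and 5.82 FPKM in sh-CEBPG#3 cells (log2 fold change 1.07, adjusted p = 9.46e-05). The log2 fold change of BCL3 spanned 0.93 to 1.20 when single libraries were left out, so it did not always stay above 1. NFKBIZ had 0.651 and 1.10 FPKM in controls and 3.38 and 3.11 FPKM upon knockdown (1.19, adjusted p = 0.000115), and its log2 fold change was 1.81 and 1.92 with pseudocounts of 0.1 and 0.01. The 3 lower genes, named after their values were seen, were OTULIN, NFKBID and COMMD1, at -0.73, -0.53 and -0.41. OTULIN removes linear ubiquitin. NFKBID is a further nuclear IkB gene, so the nuclear IkB genes did not all rise. Without sh-CEBPG#3 replicate 1 the higher genes were 3 and the lower ones 2, and without sh-NC replicate 1 the lower ones were also 2.

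The list of NF-kB target genes held 30 genes, of which 24 had values and 20 were tested. IL6, CXCL1, CXCL3, CCL2, CCL3 and SELE had no value, and CXCL2, CCL20, VCAM1 and PTGS2 did not reach the filter. Among the 20 tested, 13 were higher and 0 lower (14 and 0 by limma's unadjusted p under 0.05). Their median was 0.48, and 7 rose by more than 1. Of these 20, CCL4, TRAF1 and PTX3 reached the filter only through the knockdown libraries. Of the other 17, 10 (58.8%) were higher, against 18.5% of all genes, 6 of them by more than 1, against 2.33%, and 0 were lower. The shares of all genes were not restricted in this way. By limma's unadjusted p under 0.05, 11 of the 17 were higher and 0 lower, with a median log2 fold change of 0.28. Without sh-NC replicate 1 or without sh-CEBPG#3 replicate 2, 1 gene was called lower. CXCL8, a neutrophil chemokine, had 0.618 and 0.955 FPKM in sh-NC cells and 17.9 and 15.8 FPKM in sh-CEBPG#3 cells (log2 fold change 3.33, adjusted p = 3.84e-08). IL1B, a pyrogenic cytokine, had 1.02 and 0.742 FPKM in controls and 7.76 and 7.75 FPKM upon knockdown (2.22, adjusted p = 4.61e-07). The chemokine gene CCL4 was listed at 0 in both controls and had 3.32 and 4.60 FPKM upon knockdown, with the reservation that it has near-identical copies in the genome. CD83, a marker of activated antigen-presenting cells, rose by 1.90, the survival gene BCL2A1 by 1.56 and SOD2, the mitochondrial superoxide dismutase, by 1.15 on the log2 scale, with adjusted p = 1.47e-07, adjusted p = 3.81e-05 and adjusted p = 5.13e-06. Other textbook targets did not pass, such as IRF1 at 0.12, XIAP at 0.08 and CCL5 at -0.26, which were picked after their values were seen. Several genes of this list also respond to other inflammatory regulators, so the list is not specific to NF-kB.

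**Figure D5:**
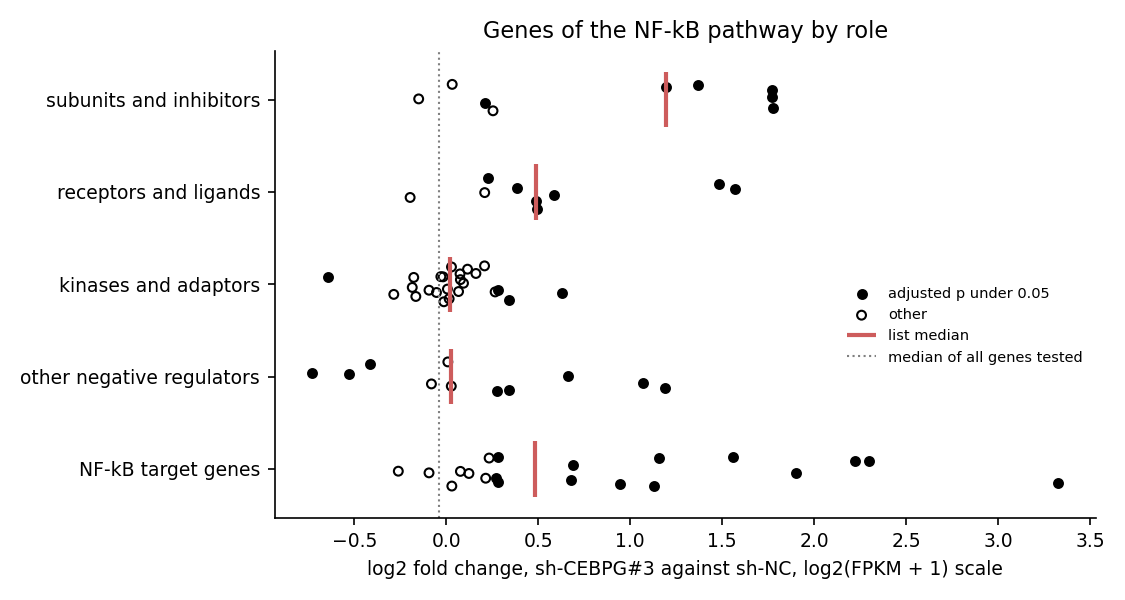
Log2 fold change of each tested gene, sh-CEBPG#3 against sh-NC (x axis), in the 5 lists by role (y axis), with filled points for an adjusted p under 0.05 in limma, red lines at list medians and a dotted line at the median of all genes tested (-0.04). The list medians are 1.19 for subunits and inhibitors, 0.49 for receptors and ligands, 0.02 for kinases and adaptors, 0.03 for other negative regulators and 0.48 for target genes, or 0.43 for receptors and ligands and 0.28 for target genes without the 4 genes that reached the filter only through the knockdown libraries.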

How the data were processed

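Transcriptomes of MV4-11 cells with sh-NC or sh-CEBPG#3 (2 libraries each) were analysed. Libraries were made with a TruSeq RNA kit. The authors filtered the reads, mapped them (HISAT2 2.0.5 and hg38 in the submitters' processing notes) and deposited FPKM values per RefSeq transcript and library. The annotation release and the FPKM program are not given in the sources used here. The table lists 28780 rows, 199 of them without values. Whole-read steps were looked for and not found in low values (among 1027 rows under 0.06 FPKM in both sh-NC libraries, at most 0.974% shared a ratio to 3 significant digits), so no count test, interval or floor was computed, and the count methods named in the plan were not used.

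FPKM was summed by symbol. Genes whose mean reached 0.5 FPKM were tested on log2(FPKM + 1) with limma 3.58.1 in R 4.3.3 (lmFit, eBayes with trend, no block), with Benjamini-Hochberg adjustment over all 12142. A gene was called at an adjusted p under 0.05. The members and lists were chosen with earlier results of these data known. Besides the members and CEBPG, genes past a log2 change of 1 were named, at most 6 per list, or else the 2 most abundant. P-values measure the spread between these libraries, which may be technical.

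The fit was repeated with quantile normalization, with equal totals, with pseudocounts of 0.1 or 0.01, without the filter or with a minimum mean of 1 FPKM, with the replicate block, without each library, and on the most abundant transcript. In a test on simulated data of 11903 genes, 200 of 200 genes changed by 1.5 on the log2 scale were called, with 9 others called. The changed genes were drawn above a minimum control level that RELB, CXCL8 and IL1B do not reach, so recovery at such low levels was not tested. The noise had an SD smoothed over genes of similar level, so genes with a larger spread of their own were not represented. Promoters and gene positions come from RefSeq and GENCODE (GRCh38), read with Python 3.11.15. Figures were drawn with matplotlib 3.10.9.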

Additional observations from a re-analysis of the deposited data

How the results depend on the processing

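NFKB2, RELB, NFKBIA, NFKBIE and TNFAIP3 were called with a log2 fold change above 1 in 12 of 12 alternatives each, and the members called above 1 numbered 5 in each of them. Leaving out single libraries gave log2 fold changes of 1.66 to 1.88 for NFKB2, 1.25 to 1.49 for RELB, 1.70 to 1.84 for NFKBIA, 1.14 to 1.25 for NFKBIE and 1.64 to 1.91 for TNFAIP3, and -0.87 to -0.70 for CEBPG. A fit that leaves 1 library in a group assumes that it varies like the others. NFKB1 then spanned -0.06 to 0.13 and thus changed sign, being -0.063 without sh-NC replicate 1 and -0.004 without sh-CEBPG#3 replicate 1. RELA (0.21) no longer passed with pseudocounts of 0.1 or 0.01 (0.22 in each), no filter (0.21), the replicate block (0.21) or the most abundant transcript (0.21), and spanned 0.18 to 0.24 when single libraries were left out. REL passed with quantile normalization (0.28), and NFKBIB with quantile normalization (-0.14) and equal totals (-0.18), where 1 member was lower. The kinases and adaptors called higher were 6 with quantile normalization, 5 with equal totals and 1 with the most abundant transcript (3 in the report), and 1 to 4 when single libraries were left out. Those lower were 2 with a mean of at least 1 FPKM, equal totals or the block, and 1 to 3 with a library left out. With the most abundant transcript the other negative regulators called were 3 higher and 0 lower, receptors and ligands 2 higher and target genes 8 higher. Negative regulators called lower were 1 with no filter, and those higher were 3 to 5 when single libraries were left out. Target genes called lower were then 0 to 1. All genes called were 640 higher and 645 lower with the most abundant transcript, and 779 and 819 genes passed a log2 change of 1 with pseudocounts of 0.1 and 0.01, against 409. The ratio of IkB to subunit FPKM, higher by 0.081 upon knockdown, was higher by 0.042 to 0.12 with a library left out. Same-numbered libraries deviated with a correlation of 0.061, so the numbers were not taken to pair them, and with the replicate block 5 members were called higher instead of 6, RELA being the one lost. UBE2N passed in 3 alternatives. The log2 fold change of NFKBIZ, 1.19, was 1.81 with a pseudocount of 0.1 and 1.92 with 0.01. For these shifts the cause was not tested. The planned count tests were not run on FPKM, and read depth, unknown here, limits what can be said of genes near 0 such as BIRC3.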
